A study of Mus musculus with 8 samples.

Results

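The fibroblast growth factor (FGF) receptors, the hepatocyte growth factor (HGF) receptor Met, the growth factors that bind them and the syndecans that hold such factors at the cell surface are described here in cells labelled C2C12, an immortalised line of mouse myoblasts with a wild type genotype. The 10 genes were chosen by name: the receptors Fgfr1, Fgfr2, Fgfr3 and Fgfr4, the receptor gene Met with its ligand gene Hgf, the FGF ligand genes Fgf2 and Fgf7, and the syndecan genes Sdc3 and Sdc4. Each was found once in both deposited tables, which list 52139 and 52338 genes. The study asked how ginseng berries concentrate (GBC) and ginsenoside Re, one of the saponins of ginseng, alter gene expression. One table holds 1 library of cells given GBC and 1 library of cells given DMSO, the solvent used as control, and the other holds 3 libraries of cells given Re and 3 given DMSO. The labels give neither dose nor duration of treatment, and nothing in the labels says whether the 3 libraries of a group came from separate cultures, so p-values measure the spread between these libraries, which may be technical.

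FGF receptors are tyrosine kinases that dimerise when they bind an FGF together with heparan sulfate, a sulfated sugar chain, and then signal through the adaptor Frs2 and the Ras to ERK cascade. Met is the kinase receptor for HGF, a factor stored in the matrix around muscle fibres that can bring resting muscle stem cells into the cell cycle. Syndecans are transmembrane proteoglycans that carry heparan sulfate, and Sdc3 and Sdc4 are known as surface proteins of muscle stem cells. In cultured myoblasts FGF2 and HGF favour proliferation and delay differentiation.

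Levels are in TPM, a relative abundance already divided by gene length, and differences are in log2(TPM + 1), the deposited scale, which understates changes of low genes. Over all listed genes, TPM added up to 479938 in the GBC library and 403442 in its DMSO library, to 704657 to 743269 in the Re libraries and to 642180 to 716589 in their DMSO libraries. Each table was taken as normalised on its own, so tests were made within the Re table, and levels set across the tables are descriptions. Markers went with the myoblast label in the Re table, apart from Pax7, of resting muscle stem cells, which was near 0 there, but against it in the GBC table. There the determination genes Myod1 and Myf5, the myoblast cadherin gene Cdh15 and Pax3 were listed at 0 in both libraries. The 9 myoblast markers summed to 9.29 TPM in the GBC library and 8.12 TPM in its DMSO library, against 246.7 to 253.1 TPM in the Re libraries and 233.2 to 265.1 TPM in their DMSO libraries. Most of the sum in the GBC table was Vcam1, an adhesion gene that other cells also express, at 7.49 TPM with GBC and 6.05 TPM with DMSO. The mesenchymal surface markers Thy1 and Ly6a had 22.1 and 58.5 TPM with GBC and 23.8 and 51.5 TPM in the DMSO library beside it, while Thy1 averaged 0.027 TPM in the Re libraries and was listed at 0 in all 3 of their DMSO libraries, and Ly6a averaged 14.4 TPM with Re and 13.2 TPM with DMSO. Other mesenchymal markers went both ways. Col3a1 was at 39.3 TPM with GBC and 19.8 TPM with DMSO there, against means of 252 TPM with Re and 218.9 TPM with DMSO. Pdgfrb was at 3.26 TPM with GBC and 1.78 TPM with DMSO, against means of 15.6 TPM with Re and 14.4 TPM with DMSO. Pdgfra was higher in the GBC table, at 9.84 and 5.85 TPM, against means of 2.57 TPM with Re and 2.27 TPM with DMSO. Col1a1 was at 46.6 TPM with GBC and 10.9 TPM with DMSO, against means of 15.7 and 16.45 TPM. Dcn, Lum, Postn and Tcf21 were at most at 1.4 TPM in any library. Markers of epithelial, endothelial, adipocyte and neural cells summed to at most 1.43 TPM a list in any library, and the 6 blood markers, Ptprc among them, to at most 2.83 TPM, most of it Cd68. The libraries of the GBC table are therefore called by their treatment and not as myoblasts.

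Fgfr1 was the main FGF receptor transcript in every library. It was at 42.5, 41.4 and 42.6 TPM in the Re libraries, against 41.5, 35.9 and 35.1 TPM in the DMSO libraries. The Re values lay close together, and the highest DMSO library fell just inside their range, so the groups overlapped. The difference was 0.17 (95% confidence interval -0.05 to 0.39, n = 3 each), with an adjusted p of 0.687 in limma. In the GBC table Fgfr1 was at 19.3 TPM in the GBC library and 12.4 TPM in the DMSO library, 1.55-fold higher with GBC. In such bulk libraries fewer cells with a transcript and less of it per cell cannot be told apart. An Fgfr1 exon overlaps an exon of Gm16159 on the opposite strand by 164 bases, so how reads were divided there is uncertain.

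Fgfr2, whose splice forms bind different sets of FGFs, was low in the Re table and higher in the GBC table. The Re libraries had 1.27, 2.11 and 2.07 TPM, against 1.55, 1.31 and 2.47 TPM in the DMSO libraries. The lowest and the highest values of the DMSO group bracketed most of the Re group, and the difference was 0.03 (interval -0.49 to 0.55; adjusted p 0.968 in limma). The GBC library had 7.43 TPM and its DMSO library 4.5 TPM, a difference of 0.62. Part of an Fgfr2 exon overlaps an exon of Ctbp2 on the same strand in the GENCODE M21 annotation, so how reads were divided there is uncertain.

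Fgfr3, a receptor best known for restraining bone growth, was the one gene of the 10 whose groups did not overlap. It was at 0.86, 0.87 and 1.09 TPM in the Re libraries, against 1.26, 1.2 and 1.67 TPM in the DMSO libraries. All 3 Re values lay below all 3 DMSO values, with a difference of -0.29 (interval -0.72 to 0.14; adjusted p 0.687 in limma). With a pseudocount of 0.1 the difference was -0.50. Such separation was seen in 15.0% of the 11967 genes tested, and in the lower direction in 1.27% of them, or in 4.96% after median-of-ratios scaling. The mean in the Re libraries was 0.94 TPM, so Fgfr3 passed the filter of a mean of 1 TPM through the DMSO libraries. In the GBC table Fgfr3 was listed at 0 in the GBC library and at 0.01 TPM in the DMSO library. An Fgfr3 exon overlaps an exon of G630022F23Rik on the opposite strand by 511 bases. The labels do not say whether counting used strand, so how reads were divided there is uncertain. Fgfr4, a receptor tied to muscle regeneration in mice, was listed at 0 in all 3 Re libraries and in 2 of the 3 DMSO libraries, at 0.12 TPM in DMSO replicate 2, and at 0 in both libraries of the GBC table. It was not tested.

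Shares within the receptor family do not depend on the total of a library. Fgfr1 made up 95.2%, 93.3% and 93.1% of the summed FGF receptor TPM in the Re libraries, against 93.7%, 93.2% and 89.4% in the DMSO libraries. Fgfr3 made up 1.93% to 2.38% in the Re libraries and 2.84% to 4.26% in the DMSO libraries, a share that restates its level, since Fgfr1 dominates the sum. In the GBC table Fgfr1 held 72.2% in the GBC library and 73.3% in the DMSO library, and Fgfr2 held 27.8% and 26.6% in the same order. The ratio of Fgfr1 to Fgfr2 was 2.59 with GBC and 2.76 with DMSO there, and ran from 19.6 to 33.5 in the Re libraries and from 14.2 to 27.4 in their DMSO libraries.

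**Figure D1:**
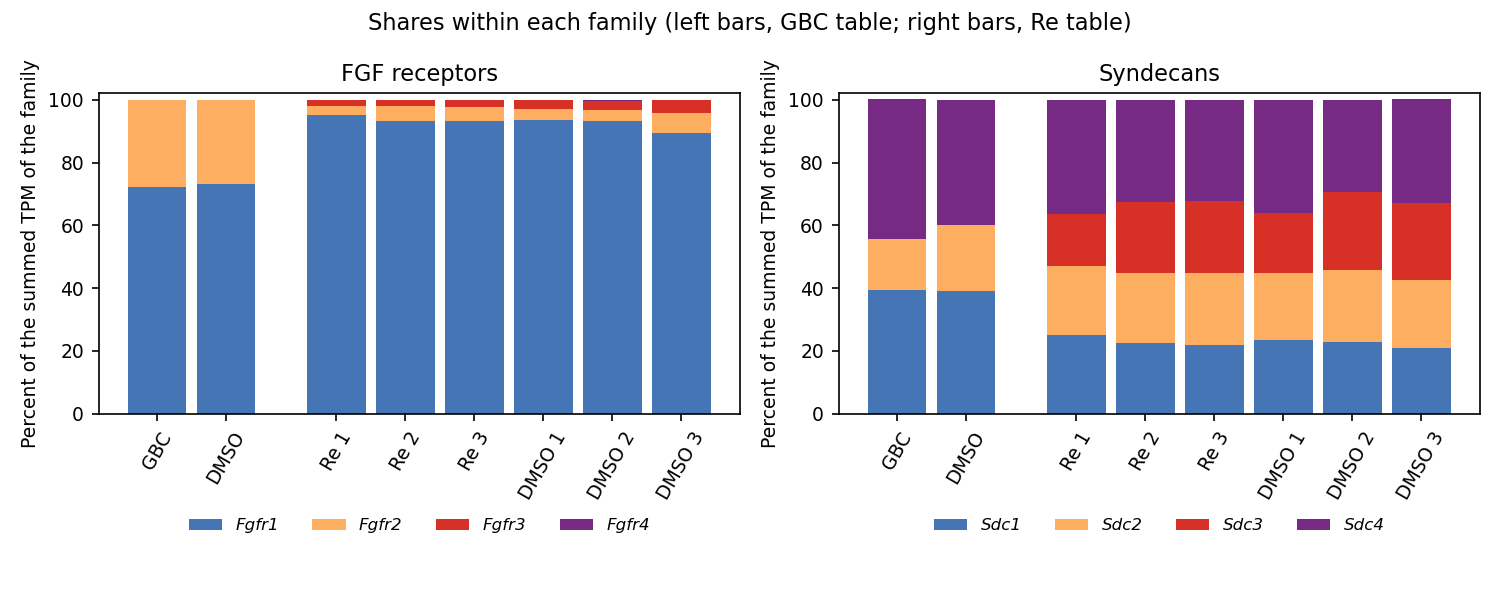
Stacked bars give the percent of the summed TPM of 4 FGF receptor genes (left panel) and 4 syndecan genes (right panel) in each library, with the GBC table at the left of each panel and the Re table at the right. Fgfr2 takes 27.8% and 26.6% of the receptor TPM in the GBC library and its DMSO library, and Sdc3 has no share in either.

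Of the ligands, Fgf7 was well above Fgf2 in each of the 8 libraries. Fgf7, known as keratinocyte growth factor and made by mesenchymal cells, was at 16.6, 23.2 and 21.2 TPM in the Re libraries, against 17.3, 22.9 and 22.8 TPM in the DMSO libraries. Both groups had replicate 1 as their lowest library, and the difference of -0.04 (interval -0.41 to 0.32; adjusted p 0.923 in limma) was far inside that spread. Its sign turned when Re replicate 1, DMSO replicate 2 or DMSO replicate 3 was left out, with values of 0.09, 0.02 and 0.02. Fgf7 was among the higher genes of the 10 in the GBC table, at 37.2 TPM in the GBC library and 29.5 TPM in the DMSO library.

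Fgf2, the FGF most used to keep myoblasts dividing in culture, was at 2.70, 1.91 and 3.33 TPM in the Re libraries, against 2.48, 1.99 and 2.26 TPM in the DMSO libraries. Both the lowest and the highest library were Re libraries, and the difference was 0.15 (interval -0.29 to 0.59; adjusted p 0.777 in limma), or 0.02 without Re replicate 3. The GBC table had it at 0.96 TPM with GBC and 0.73 TPM with DMSO. Fgf2 shares up to 585 bases of exon sequence with Nudt6 on the opposite strand, and up to 255 with Gm43439 on the same strand. Nudt6 was at 1.83 to 2.52 TPM in the Re libraries and 1.83 to 5.25 TPM in the DMSO libraries. The labels do not say whether counting used strand, so how reads were divided in the shared stretches is uncertain. The ratio of Fgf7 to Fgf2 was 38.7 in the GBC library and 40.4 in its DMSO library, against 6.16 to 12.1 in the Re libraries and 6.98 to 11.5 in their DMSO libraries.

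Met and Hgf were both present, with the receptor transcript above that of the ligand in every library. Met was at 21.2, 23.4 and 21.5 TPM in the Re libraries, against 19.3, 17.9 and 21.7 TPM in the DMSO libraries. One Re library lay above all DMSO libraries, and the other 2 lay within their range. The difference was 0.16 (interval -0.08 to 0.41; adjusted p 0.687 in limma). Hgf was at 6.38, 7.36 and 8.84 TPM in the Re libraries, against 6.85, 6.44 and 5.78 TPM in the DMSO libraries. Re replicates 2 and 3 lay above every DMSO library and Re replicate 1 among them, and the difference was 0.21 (interval -0.12 to 0.53; adjusted p 0.687 in limma). Without Re replicate 3, the highest library, the difference of Hgf was 0.10, and without DMSO replicate 2 that of Met was 0.10. An Hgf exon overlaps an exon of Gm43489 on the same strand by 484 bases, so how reads were divided there is uncertain.

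With GBC, Met was the gene of the 10 that differed most: the GBC library had 20.8 TPM and the DMSO library 9.87 TPM, 2.10-fold higher with GBC. Hgf was at 4.99 TPM in the GBC library and 4.38 TPM in the DMSO library, a difference of 0.15 that turned to -0.17 after median-of-ratios scaling and to -0.06 with both libraries rescaled to the same sum. The ratio of Met to Hgf was therefore 4.16 with GBC and 2.25 with DMSO. In the Re table this ratio was 2.43 to 3.33 in the Re libraries and 2.78 to 3.75 in the DMSO libraries, a range that the GBC library lay above and its DMSO library below.

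The syndecans gave the sharpest contrast between the tables. Sdc3 was at 36.6, 52.5 and 55.8 TPM in the Re libraries, against 45.6, 52.8 and 60.9 TPM in the DMSO libraries, and was listed at 0 in both the GBC library and its DMSO library. Within the Re table the groups overlapped, with Re replicate 1 the lowest library, and the difference was -0.15 (interval -0.55 to 0.25; adjusted p 0.770 in limma). Without Re replicate 1 the difference was 0.04. Exons of Sdc3 overlap exons of Gm26716 and Gm12970 on the opposite strand, by up to 222 and 48 bases. How reads were divided there is uncertain. Sdc4, which links heparan sulfate binding to focal adhesions and protein kinase C alpha, was at 81.2, 75.7 and 78.8 TPM in the Re libraries, against 86.6, 62.5 and 82.99 TPM in the DMSO libraries. DMSO replicate 2 was the lowest and DMSO replicate 1 the highest of the 6, with all Re libraries between them. The difference was 0.04 (interval -0.26 to 0.33; adjusted p 0.927 in limma). It was -0.08 after median-of-ratios scaling and -0.11 without DMSO replicate 2. The GBC table had Sdc4 at 35.8 TPM in the GBC library and 29.8 TPM in the DMSO library.

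All 4 syndecan genes were present in the Re table, where Sdc4 held 32.3% to 36.4% of their summed TPM in the Re libraries and 29.4% to 36.1% in the DMSO libraries, and Sdc3 held 16.4% to 22.9% and 19.0% to 24.8% in the same order. Sdc1 and Sdc2, which were not among the 10 genes, were at 53.9 ± 1.79 and 52.2 ± 3.56 TPM in the Re libraries and at 52.4 ± 4.21 and 51.5 ± 2.91 TPM in the DMSO libraries (SD, n = 3 each). In the GBC table Sdc1 and Sdc2 had 31.9 and 13.2 TPM with GBC and 29.2 and 15.9 TPM with DMSO, so of the 4 syndecan genes Sdc3 alone was listed at 0 there. Of the 9 myoblast markers 5 were listed at 0 in the same 2 libraries, while Vcam1 was at 7.49 TPM with GBC and 6.05 TPM with DMSO and Des, desmin, at 1.59 and 1.92 TPM in the same order. The part of these markers in the contrast was not tested. The ratio of Sdc4 to Sdc3 was 1.41 to 2.22 in the Re libraries and 1.18 to 1.90 in the DMSO libraries.

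The promoters of Sdc3, Sdc4 and Fgfr2 are shown because these genes mark the contrast between the tables: Sdc3 listed at 0 in one of them, Sdc4 well expressed in both, and Fgfr2 with the larger receptor share where Sdc3 was at 0. Each runs from 250 bases before to 50 bases after the gene start in RefSeq on GRCm38.p6, a build other than the GRCm39 named in the processing notes, and RefSeq promoter rows were found for 9 of the 10 genes. Capitals mark 2 motifs searched on both strands, the E-box CANNTG, the general site of MyoD family and other helix-loop-helix factors, and the GC box GGGCGG. The Sdc3 promoter lies at chr4:130792287-130792586 on the plus strand, that of Sdc4 at chr2:164443139-164443438 on the minus strand and that of Fgfr2 at chr7:130266759-130267058 on the minus strand.
Sdc3: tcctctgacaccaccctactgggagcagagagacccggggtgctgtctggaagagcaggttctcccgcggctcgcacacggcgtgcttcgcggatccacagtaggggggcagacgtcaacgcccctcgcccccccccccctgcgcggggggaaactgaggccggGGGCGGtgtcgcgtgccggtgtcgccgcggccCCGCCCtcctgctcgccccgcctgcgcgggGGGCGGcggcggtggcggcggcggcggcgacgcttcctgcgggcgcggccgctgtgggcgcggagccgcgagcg
Sdc4: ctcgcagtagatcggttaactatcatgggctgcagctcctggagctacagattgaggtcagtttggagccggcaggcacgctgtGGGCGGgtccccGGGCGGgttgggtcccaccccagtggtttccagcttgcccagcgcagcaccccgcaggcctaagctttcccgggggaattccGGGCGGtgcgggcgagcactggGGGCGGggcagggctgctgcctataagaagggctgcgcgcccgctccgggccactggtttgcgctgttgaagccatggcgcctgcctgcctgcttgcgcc
Fgfr2: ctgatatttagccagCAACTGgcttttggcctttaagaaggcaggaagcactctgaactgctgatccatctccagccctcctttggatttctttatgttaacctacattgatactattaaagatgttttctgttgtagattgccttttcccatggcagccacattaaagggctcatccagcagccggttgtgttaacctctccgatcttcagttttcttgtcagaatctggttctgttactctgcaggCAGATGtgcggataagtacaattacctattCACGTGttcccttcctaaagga
The Sdc3 window held 3 GC boxes and no E-box, with a G and C content of 77.7%, and the Sdc4 window held 4 GC boxes and no E-box at 67.7%. The Fgfr2 window held 3 E-boxes and no GC box, at 43.7%. Of 32851 promoter windows in the table, 72.3% held at least 1 E-box and 35.7% at least 1 GC box. None of these matches is evidence of a bound site.

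**Figure D2:**
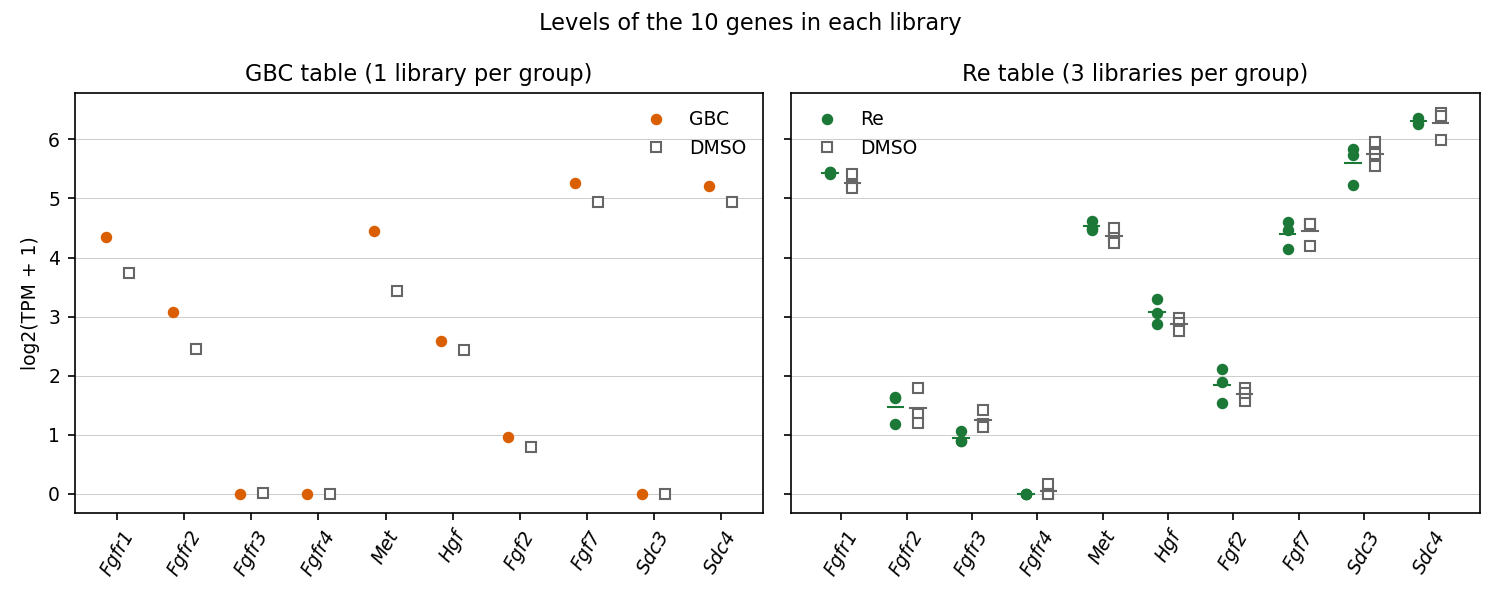
Each point is the log2(TPM + 1) of a gene in 1 library, with GBC (left of each pair) and DMSO in the left panel and Re (left of each pair) and DMSO in the right panel, and short lines at the means of 3 libraries. Sdc3 lies at 0 in both libraries of the left panel and at 36.6 to 60.9 TPM in the right panel.

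By level, the order in the Re table was Sdc4, Sdc3, Fgfr1, Met, Fgf7, Hgf, Fgf2, Fgfr2, Fgfr3 and Fgfr4, with means over the 6 libraries of 78.0, 50.7, 39.8, 20.8, 20.7, 6.94, 2.45, 1.8, 1.16 and 0.02 TPM. Neighbours whose ranges over the 6 libraries overlapped were Sdc3 and Fgfr1, Met and Fgf7, Fgf2 and Fgfr2, and Fgfr2 and Fgfr3. The other neighbours did not overlap, as Sdc4, with a lowest value of 62.5 TPM, lay above the 60.9 TPM reached by Sdc3. In the GBC library the order was led by Fgf7 and Sdc4 and in its DMSO library by Sdc4 and Fgf7, followed in both by Met and Fgfr1 in either order, Fgfr2, Hgf and Fgf2.

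Ginsenoside Re was compared with DMSO over every gene that averaged 1 TPM or more across its 6 libraries. Of the 10 genes 9 were tested, all but Fgfr4, and 0 had an adjusted p under 0.05 in limma, as did 0 of 11967 genes, or 0.0%. At an unadjusted p under 0.05 there were 0 of the 9 and 6.23% of all genes. The adjusted p of the 9 ran from 0.687 to 0.968 in limma, and from 0.355 to 0.997 over all alternatives tried. The differences of 6 genes lay above 0 and of 3 below, with a median of 0.036, while 77.5% of all genes lay above 0 with a median of 0.105. Relative to that median, Fgfr1, Met, Hgf and Fgf2 lay above it and Fgfr2, Fgfr3, Fgf7, Sdc3 and Sdc4 below it. After median-of-ratios scaling, where the median of all genes was -0.001, 5 of the 9 lay below 0, Fgfr2 at -0.04 and Sdc4 at -0.08 having turned. Fgfr1, Met, Hgf and Fgf2 were then at 0.06, 0.05, 0.10 and 0.07, and Fgfr3, Sdc3 and Fgf7 at -0.35, -0.26 and -0.16. Intervals reached from 0.22 to 0.52 to either side, and differences smaller than that cannot be told from 0 with 3 libraries each. The 10 mesenchymal markers summed to 279.5 to 320.5 TPM in the Re libraries and 222.0 to 317.4 TPM in the DMSO libraries, and the myoblast markers overlapped likewise.

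**Figure D3:**
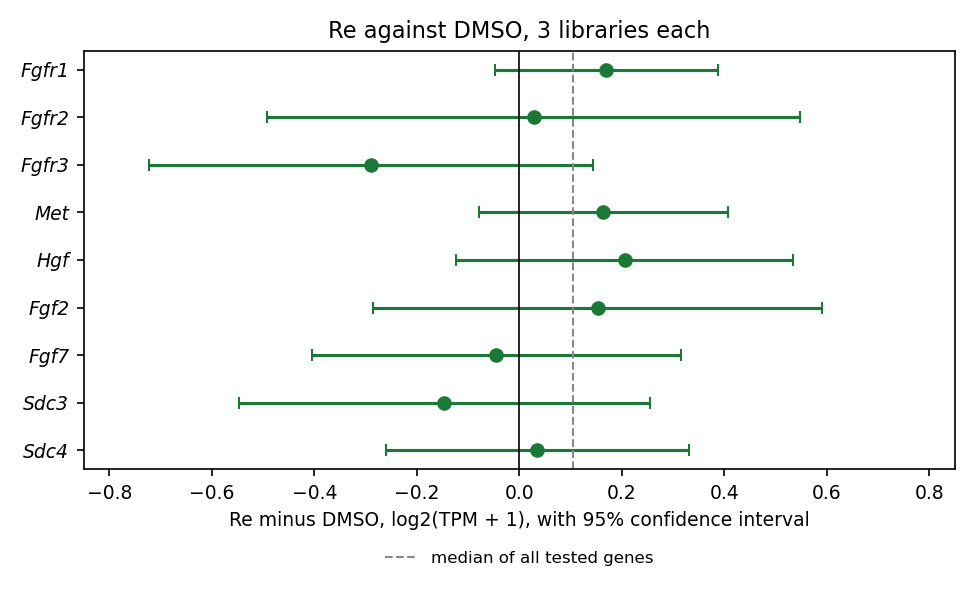
Points are the differences in log2(TPM + 1), Re minus DMSO, of the 9 tested genes, bars are 95% confidence intervals from limma (3 libraries each) and the dashed line is the median of all tested genes, 0.105. Each interval includes 0, and Fgfr3 at -0.29 lies farthest from it.

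GBC was compared with DMSO by size alone, since each has 1 library and no test can be made. The rule counts genes that average 5 TPM or more and differ by 1 or more on the log2 scale. Of the 10 genes 5 met the level, namely Fgfr1, Fgfr2, Met, Fgf7 and Sdc4, and 1, Met at 1.001, passed the size, just over the line. Over all genes 5.21% of 6639 passed, 4.97% in the higher direction. All 5 genes were higher with GBC on the deposited scale, though Fgf7 and Sdc4 turned after median-of-ratios scaling. Of all genes 88.9% were higher on the deposited scale, with a median difference of 0.307. The differences of Fgfr1 and Fgfr2 were 0.59 and 0.62, those of Fgf7 and Sdc4 0.32 and 0.26, and 20.6%, 19.1%, 47.6% and 56.4% of genes had a larger one than Fgfr1, Fgfr2, Fgf7 and Sdc4. For Met that share was 4.93%. After median-of-ratios scaling, which moved the median of all genes to -0.057, Fgfr1 and Fgfr2 were at 0.23 and 0.28 and Fgf7 and Sdc4 had turned, at -0.06 and -0.12. With both libraries rescaled to the same sum, where that median was 0.109, Fgfr1 and Fgfr2 were at 0.37 and 0.44, and Fgf7 and Sdc4 at 0.08 and 0.01. Scaling ended the call on Met: its difference was 0.64 after median-of-ratios scaling and 0.80 with both libraries rescaled to the same sum. Of the genes at the level, 1.87% of 6593 and 3.44% of 9193 then passed. The level of 5 TPM was applied after scaling, so these shares and the medians of -0.057 and 0.109 cover other sets of genes than the 6639. Beside these values, the 10 mesenchymal markers summed to 180.3 TPM with GBC and 114.3 TPM with DMSO and all listed genes to the higher total with GBC, and the part of either in the differences was not tested. Of these markers 5 met the level of 5 TPM, 4 of them higher with GBC and Thy1 lower. Col1a1 alone passed the size rule, at 46.6 TPM with GBC and 10.9 TPM with DMSO. In the Re table Met spanned 0.14 among the 3 Re libraries and 0.27 among their 3 DMSO libraries. That table was normalised on its own and differed in markers, so these spans do not measure the spread between libraries of the GBC table.

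**Figure D4:**
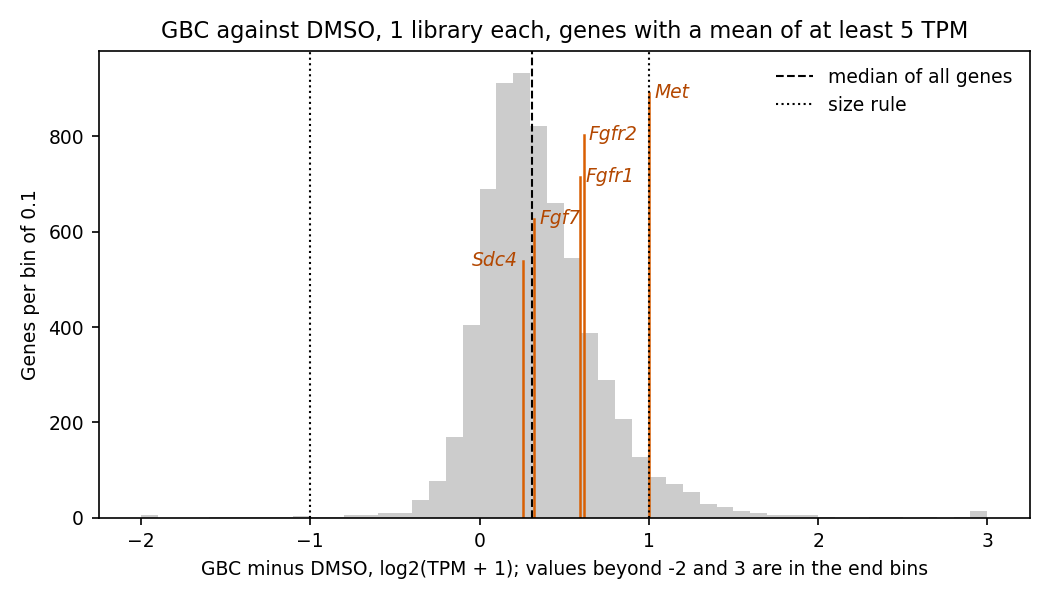
Grey bars count genes by their difference in log2(TPM + 1), GBC minus DMSO, among the 6639 genes that average 5 TPM or more, with 1 library each, and orange lines mark the 5 of the 10 genes that reach this level. Met at 1.001 stands on the dotted line of the size rule, and Fgf7 and Sdc4 stand near the dashed median of 0.307.

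Genes that work around these receptors were read from lists, each described by counts and medians beside those of all genes. The lists also hold Fgf2, Fgf7, Hgf, Met, Sdc3 and Sdc4 themselves, so the values of these genes enter the counts and medians again. In the list of 22 FGF ligands 3 genes were tested, Fgf2, Fgf7 and Fgf11, and 9 were listed at 0 in all 6 libraries of the Re table. Fgf11, an FGF that stays inside the cell, was at 1.60 ± 0.23 TPM in Re and 1.14 ± 0.40 TPM in DMSO (SD, n = 3 each), a difference of 0.29. Of the co-receptors and binding proteins 4 of 10 were tested, 3 above 0 and 1 below, with a median of 0.04. Flrt2, a membrane protein with leucine-rich repeats, was at 24.5 to 28.7 TPM in Re and 22.4 to 23.6 TPM in DMSO, without overlap, a difference of 0.17, or 0.06 after median-of-ratios scaling. Groups without overlap and higher in Re were seen in 13.7% of the 11967 genes tested. Cdh2, N-cadherin, and Fgfrl1, an FGF receptor that lacks the kinase, differed by 0.08 and 0.01, and by -0.04 and -0.09 after median-of-ratios scaling.

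The list of 14 genes around HGF, which includes Hgf and Met, had 5 tested, 3 above 0 and 2 below. Those above 0 were Hgf, Met and Plat, and those below were Plau and Plaur. The most abundant was Plaur, the urokinase receptor, at 84.9 ± 8.23 TPM in Re and 91.3 ± 10.1 TPM in DMSO (SD, n = 3 each), and Plau, urokinase, one of the proteases that can cleave HGF to its active form, was at 32.0 ± 0.78 and 32.5 ± 4.80 TPM. Plat, the tissue plasminogen activator gene, differed by 0.12, or by 0.01 after median-of-ratios scaling. Heparan sulfate proteoglycans had 9 of 13 genes tested, 7 above 0 and 2 below, with a median of 0.04 against 0.105 for all genes. The most abundant was the glypican gene Gpc1, at 158.4 ± 4.03 TPM in Re and 147.3 ± 22.7 TPM in DMSO. Gpc6, another glypican, was at 5.23 to 5.54 TPM in Re and 3.74 to 4.82 TPM in DMSO, a difference of 0.25, and Agrn, agrin of the neuromuscular junction, at 9.19 to 11.1 and 8.07 to 9 TPM, a difference of 0.20, neither with overlap. Col18a1, a collagen that carries heparan sulfate, differed by 0.17. After median-of-ratios scaling Gpc6, Agrn and Col18a1 were at 0.15, 0.10 and 0.05.

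Heparan sulfate synthesis and editing had 17 of 29 genes tested, 16 above 0 and 1 below, with a median of 0.10, close to that of all genes. Sulf1, an enzyme that removes sulfate groups from heparan sulfate outside the cell, was at 9.39 ± 0.73 TPM in Re and 7.22 ± 0.07 TPM in DMSO (SD, n = 3 each), with all Re values above all DMSO values. Its difference was 0.34 (interval 0.08 to 0.59) and did not pass adjustment (adjusted p 0.687 in limma), and was 0.23 after median-of-ratios scaling. Sulf1 was listed at 0 in both libraries of the GBC table. Hs6st1, a heparan sulfate sulfotransferase, and Extl2, of the exostosin family, differed by 0.19 and 0.16, and by 0.08 and 0.06 after median-of-ratios scaling. Of 8 syndecan partners 7 were tested, 6 above 0 and 1 below, with a median of 0.12. Prkca, protein kinase C alpha, was at 30.9 to 38.6 TPM in Re and 25.2 to 30.4 TPM in DMSO, a difference of 0.31, and Adam17, a protease that sheds surface proteins, differed by 0.17, and after scaling they were at 0.20 and 0.06. Actn4, an actinin that links actin filaments, was at 88.4 ± 19.6 TPM in Re and 114.8 ± 12.01 TPM in DMSO, a difference of -0.39, or -0.50 after scaling.

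The adaptors and the MAP kinase cascade had all 25 genes tested, 16 above 0 and 9 below, with a median of 0.07. Nras, a Ras protein, was at 60.3 ± 6.57 TPM in Re and 48.9 ± 6.48 TPM in DMSO (SD, n = 3 each), a difference of 0.30, or 0.19 after median-of-ratios scaling. Crkl, an adaptor, and Mapk3, the kinase ERK1, differed by -0.29 and -0.17, and by -0.40 and -0.28 after scaling. Mapk3 was at 26.7 to 29.5 TPM in Re and 29.9 to 33.1 TPM in DMSO, without overlap. The feedback inhibitors and ERK targets had 20 of 22 genes tested, 12 above 0 and 8 below, with a median of 0.03. Phlda1 and Egr1, both induced by growth factors, differed by -0.24 and -0.26, or by -0.35 and -0.36 after scaling. Spred1, an inhibitor of Ras signalling, differed by 0.16, or by 0.05 after scaling. The ERK phosphatase gene Dusp6 was at 24.0 ± 0.07 TPM in Re and 24.1 ± 4.78 TPM in DMSO, and Etv4, an ETS factor induced by FGF, at 40.5 ± 11.5 and 38.7 ± 5.72 TPM; Dusp6 and Etv4 are named here after their values were seen. In none of the 8 lists did a gene have an adjusted p under 0.05 in limma, and 4 of the 90 tested entries had an unadjusted p under 0.05, namely Sulf1, Prkca, Actn4 and Nras. That is 4.44%, against 6.23% of all genes. Groups without overlap and higher in Re were seen in 1 of 4 co-receptors, 2 of 9 proteoglycans and 4 of 17 genes of heparan sulfate synthesis. They were also seen in 2 of 7 syndecan partners and 1 of 25 adaptors and kinases, and in none of the other lists, against 13.7% of all genes. In the lower direction Mapk3 was the only such gene, against 1.27% of all genes.

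**Figure D5:**
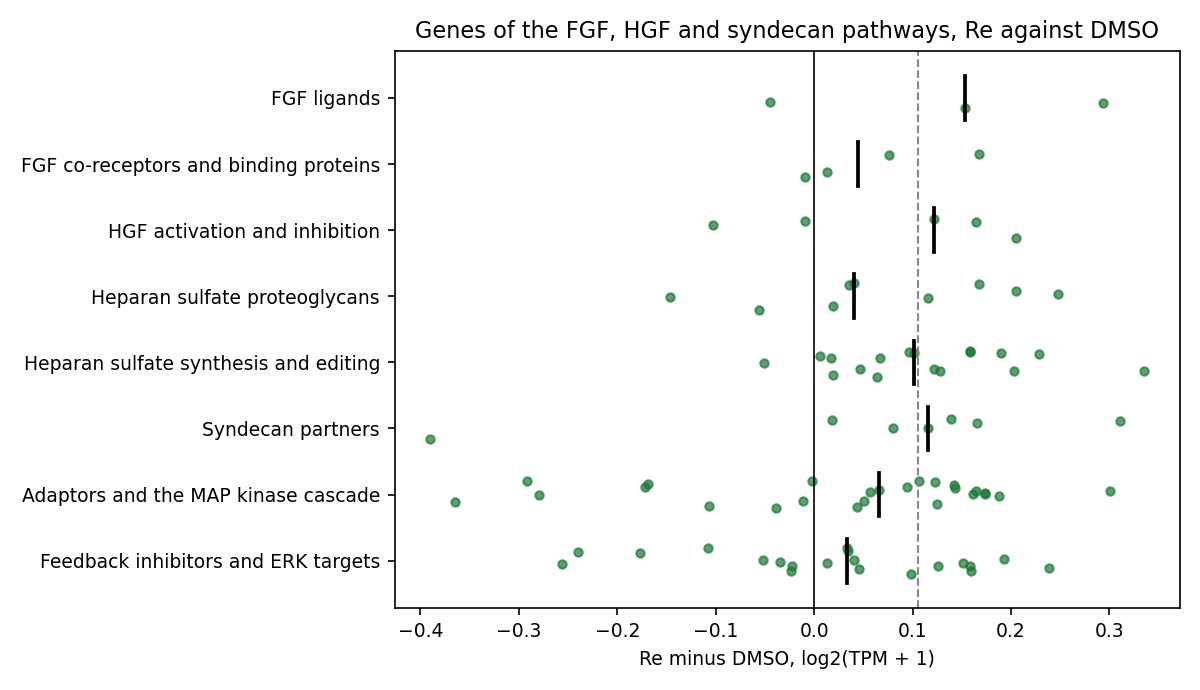
Each point is the difference in log2(TPM + 1), Re minus DMSO, of a tested gene in 1 of 8 lists, with a black bar at the median of the list, a solid line at 0 and a dashed line at the median of all genes, 0.105. The list medians lie between 0.03 and 0.15, and Actn4 at -0.39 is the lowest point.

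With GBC, the same lists had 1 gene past the size rule in each of 4 lists, all higher: Met among the HGF genes, Hspg2 among the proteoglycans, Actn4 among the syndecan partners and Crkl among the adaptors. These 4 are 7.69% of the 52 entries at the level of the rule, against 5.21% of all genes. The entries include Met, Fgf7 and Sdc4 of the 10 genes, so the call on Met is counted again in this share. Hspg2, which encodes perlecan of the basement membrane, was at 8.78 TPM in the GBC library and 3.47 TPM in the DMSO library, a difference of 1.13. Crkl was at 8.55 and 3.05 TPM in the same order, a difference of 1.24, and Actn4 at 27.6 and 13.2 TPM, a difference of 1.01. After median-of-ratios scaling none of these 4 passed, with Hspg2 at 0.80, Crkl at 0.92 and Actn4 at 0.64. Hspg2 and Crkl still passed without mitochondrially encoded genes, at 1.06 and 1.19, and with a common sum, at 1.01 and 1.14, while Met and Actn4 did not, both at 0.84 and 0.80 under those settings. The medians of the lists with at least 5 genes at the level of the rule were 0.26 for 5 proteoglycans, 0.46 for 9 genes of heparan sulfate synthesis, 0.19 for 7 syndecan partners, 0.41 for 15 adaptors and kinases and 0.45 for 9 feedback inhibitors and ERK targets, against 0.307 for all genes. Among further genes with large differences were Cdh2 at 0.92, Braf, a Raf kinase, at 0.97, Fosl1, an ERK target, at 0.99, B3gat3, an enzyme of the sugar linker of heparan sulfate, at 0.84, and the sulfatase gene Sulf2 at 0.75. After median-of-ratios scaling these were at 0.55 for Cdh2, 0.65 for Braf, 0.62 for Fosl1, 0.49 for B3gat3 and 0.40 for Sulf2.

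The genes whose pattern over the 6 libraries of the Re table was most like that of a member were found by the root mean square difference of centred log2(TPM + 1) among 8634 named protein-coding genes that average 5 TPM or more. For Fgfr1, whose own spread was 0.114 on this measure, they were Ptpn9 and Kif7, at 0.0147 and 0.0156. For Met, with a spread of 0.121, they were Otud5 and Itch, at 0.0199 and 0.0313, and for Sdc4, with 0.150, Slc35e3 and Myl12a, at 0.0251 and 0.0264. For Sdc3, with a larger spread of 0.232, the nearest were Vangl2 and Desi1, at 0.0469 and 0.0587. For Hgf they were Ap3d1 and Fip1l1, and for Fgf7 they were Tfpi and Anp32a.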

How the data were processed

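Libraries came from total RNA with a TruSeq RNA kit, per the labels' protocols. STAR and RSEM, with no version, and the builds GRCh38 and GRCm39 stand in the submitters' processing notes. The deposited values are log2 of TPM plus 1 per Ensembl gene, and back-transformed they are multiples of 0.01 TPM. TPM keeps no depth, so no count model, counting interval or detection limit is given, and precision rests on the number of libraries. The Re and DMSO libraries were tested with limma 3.58.1 under R 4.3.3 (lmFit, eBayes with trend, two-sided, Benjamini-Hochberg over every gene averaging 1 TPM or more, threshold 0.05). GBC and DMSO, 1 library each, were compared by a size rule. The fit was tested on simulated data with known changes. Overlapping genes came from GENCODE M21 and promoters from RefSeq, both on GRCm38. Other steps used Python 3.11.15, numpy 2.4.6, pandas 2.3.3 and matplotlib 3.10.9.

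The 10 genes and the lists were chosen with earlier results of these data known. All 10 are named, and from each list up to 3 genes with the smallest p for Re, up to 3 with the largest difference for GBC and up to 2 with the highest level could be named. Alternatives were pseudocounts of 0.1 and 0.5, other filters, median-of-ratios scaling (over genes above 0 in each library with a mean of at least 1 TPM), rescaling to a sum of 1000000 TPM with or without mitochondrially encoded genes, limma without trend or robust, a block on replicate number, and leaving out 1 library at a time.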

Additional observations from a re-analysis of the deposited data

How the results depend on the processing

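Counts of genes called for Re were 0 under each scaling, filter, pseudocount and limma setting and with a replicate block, and ran from 0 to 7 with 1 library left out, none of them among the 10 genes. The replicate block gave the 9 tested genes adjusted p of 0.663 to 0.964 in limma. The replicate numbers were not taken as pairs, since the labels state no pairing. Deviations of same-numbered libraries correlated at 0.163, 0.077 and 0.017 across genes. Re replicates 1 and 2 correlated best with the DMSO replicate of the same number, and Re replicate 3 with DMSO replicate 2, at 0.094. Genes of the 10 with groups that did not overlap numbered 1 (Fgfr3), and 0 with a filter of 5 TPM, which leaves Fgfr3 untested. They numbered 2 (Fgfr1 and Fgfr3) without mitochondrially encoded genes, and 1 to 3 with 1 library left out, where a count of separated groups can only stay or rise if the same genes are tested. The count of genes past the size rule for GBC was 346, with 522 at a mean of at least 1 TPM and 123 after median-of-ratios scaling.

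Signs turned in genes with small differences. Under median-of-ratios scaling, without mitochondrially encoded genes, and with a common sum for all genes, Fgfr2 was at -0.044, -0.033 and -0.015, Sdc4 at -0.078, -0.055 and -0.031, and Fgfrl1 at -0.094, -0.075 and -0.051; Cdh2 was at -0.037 and -0.014 under the first 2. With 1 library left out, Fgfr2 ran from -0.093 to 0.200, Fgf7 from -0.171 to 0.087, Sdc3 from -0.260 to 0.038, Sdc4 from -0.109 to 0.123 and Fgfrl1 from -0.107 to 0.111. The cause was not tested. The sign of the Re difference of Fgfr1, Fgfr3, Met, Hgf and Fgf2 was the same under each alternative run, with Fgfr3 at -0.344 to -0.203 and Fgfr1 at 0.125 to 0.244 when 1 library was left out.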
